A study of Mus musculus with 12 samples.

Results

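The dual-specificity MAP kinase phosphatases are a family of enzymes that remove phosphate from both the threonine and the tyrosine of active ERK, JNK and p38 MAP kinases. Their transcripts were described here in RAW264.7, a line of mouse cells with macrophage features that came from a tumour induced by a transforming virus. The members were the 9 genes of the family with these symbols (Dusp1, Dusp2, Dusp4, Dusp5, Dusp6, Dusp7, Dusp8, Dusp10 and Dusp16), out of 31719 gene symbols in the deposited table, and all 9 were found there. RNA sequencing covered 12 libraries of wild-type cells in 4 groups of 3: LPS (50 ng/ml) together with an antibody against CD36 (diluted 1 in 100), LPS alone (50 ng/ml), the antibody alone (1 in 100), and untreated cells. LPS, from the bacterial outer membrane, is sensed by TLR4. CD36 takes up lipids and oxidised lipoproteins at the cell surface. No isotype control antibody was among the groups, the labels gave no treatment time, and they did not say whether the libraries of 1 group were separate cultures. The p-values therefore rest on a spread between libraries that may be technical.

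Signals from TLR4 switch on all 3 MAP kinase branches in macrophages, and the phosphatases switch them off again, many of them as products of genes that the same signals induce. By location and substrate they form 3 classes. Dusp1, Dusp2, Dusp4 and Dusp5 encode nuclear enzymes made on stimulation, Dusp6 and Dusp7 encode cytoplasmic enzymes that act mainly on ERK, and Dusp8, Dusp10 and Dusp16 encode enzymes that act mainly on JNK and p38. In mice, loss of Dusp1 prolongs p38 and JNK activity in macrophages given LPS and raises their cytokine output.

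Upstream sequences are shown for Dusp5 and Dusp2, which differed between LPS with and without the antibody, and for Dusp8 and Dusp1, which held a cyclic AMP response element (CRE, TGACGTCA). Each covers the 250 bases before the RefSeq start on GRCm38.p6, read 5′ to 3′ on the gene's strand, and 8 of the 9 members had an entry. Dusp4, which also differed between LPS with and without the antibody, had no entry and was not searched. The RefSeq start is not always the start of the GENCODE M21 gene model. The windows of Dusp8 and Dusp1 lie inside that model, and the window of Dusp5 runs past its start. Capitals mark the motifs found: adjoining CArG boxes (bound by serum response factor) in Dusp5, the E-box CACGTG in Dusp2 and Dusp1, and the CRE in Dusp8 and Dusp1.
Dusp5, chr19:53528895-53529144, + strand: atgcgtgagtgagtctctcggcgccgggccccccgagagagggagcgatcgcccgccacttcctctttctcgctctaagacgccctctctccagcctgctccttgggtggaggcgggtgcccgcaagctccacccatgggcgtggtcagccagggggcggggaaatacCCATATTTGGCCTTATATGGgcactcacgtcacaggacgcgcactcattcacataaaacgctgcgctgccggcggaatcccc
Dusp2, chr2:127335909-127336158, + strand: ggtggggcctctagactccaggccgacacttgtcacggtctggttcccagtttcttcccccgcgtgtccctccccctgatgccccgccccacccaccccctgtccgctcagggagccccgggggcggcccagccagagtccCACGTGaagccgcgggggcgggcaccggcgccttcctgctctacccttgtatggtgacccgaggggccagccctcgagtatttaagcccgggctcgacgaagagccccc
Dusp8, chr7:142095285-142095534, - strand: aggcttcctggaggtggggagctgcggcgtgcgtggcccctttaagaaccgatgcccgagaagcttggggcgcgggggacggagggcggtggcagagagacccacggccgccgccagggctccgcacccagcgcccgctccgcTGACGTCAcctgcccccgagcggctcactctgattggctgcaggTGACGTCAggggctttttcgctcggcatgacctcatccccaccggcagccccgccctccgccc
Dusp1, chr17:26508473-26508722, - strand: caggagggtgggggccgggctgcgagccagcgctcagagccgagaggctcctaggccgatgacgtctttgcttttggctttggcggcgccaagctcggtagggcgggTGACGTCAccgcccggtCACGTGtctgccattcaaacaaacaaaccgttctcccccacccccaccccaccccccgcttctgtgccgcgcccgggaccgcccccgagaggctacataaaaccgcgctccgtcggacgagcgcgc

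Motifs were searched on both strands. The CRE stood at 107 and 63 bases upstream in Dusp8 and at 143 in Dusp1, and 1.55% of the 32851 promoter windows of the same length held at least 1. The CArG boxes of Dusp5 began 82 and 72 bases upstream, against 1.47% of windows with at least 1. The E-box, 109 bases upstream in Dusp2 and 126 in Dusp1, was in 6.02% of windows. The AP-1 motif TGANTCA (6.75% of windows), the NF-kB consensus (7.25%) and the TATAAA box (12.4%) were in none of the 8 windows. No motif overlapped another. A match or its absence in such a window describes these letters only.

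The files gave FPKM, a level scaled to gene length and library depth, which is meant to allow levels to be compared between genes. The gene length that fitted the values counts every annotated exon, whether or not these cells use it. Orders and shares of the members rest on that length. The depth of each library, recovered from the steps between low values, ran from 30070450 to 54137810 reads. All 9 members fell on whole reads in all 12 libraries, within 0.005 reads. Of 10 macrophage markers, 9 averaged at least 1 FPKM in each group, and Mertk, the exception, was at most 0.0222 FPKM in any group mean. Markers of T and NK cells, B cells, neutrophils, fibroblasts, and endothelial and epithelial cells averaged below 1 FPKM in every group, and each of these lists summed to at most 1.13 FPKM in any library. In bulk RNA, fewer cells that make a transcript and less of it per cell cannot be told apart. Values below are FPKM, as mean ± SD with n = 3 libraries per group. Changes are differences in log2(FPKM + 1), which understate those of low genes, with adjusted p from limma over 10276 genes and a call at an adjusted p under 0.05. Of the 9 members 8 were tested: Dusp8 never reached 1 FPKM, and Dusp10 passed the filter of 1 FPKM in 3 libraries only through libraries given LPS.

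**Figure D1:**
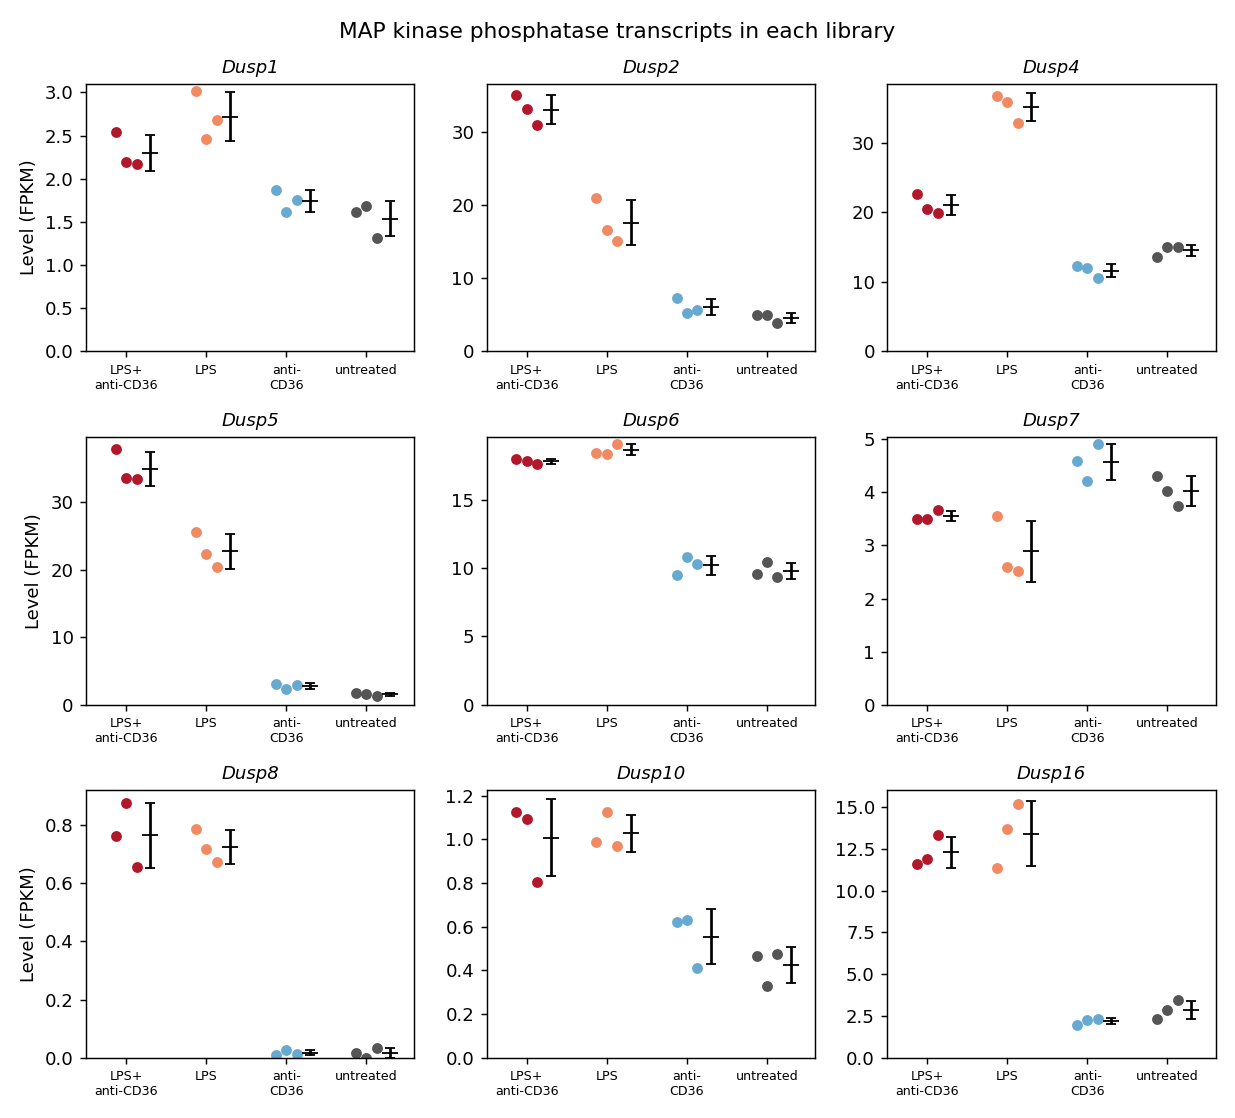
Level (FPKM, linear axes starting at 0) of each of the 9 phosphatase transcripts in every library, by group, with points for libraries and bars for mean ± SD (n = 3). Dusp2 and Dusp5 are highest with LPS and anti-CD36 together, Dusp4 is highest with LPS alone, and Dusp6, Dusp8, Dusp10 and Dusp16 sit close together in the 2 LPS groups.

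LPS alone was compared with untreated cells to give the response of the family to the stimulus. Of the 8 members tested, 7 rose and Dusp7 fell, so that all 8 were called, where 49.8% of all genes tested were called (16.6% higher and 33.1% lower). The 7 included Dusp10, which passed the filter only through libraries given LPS. With median-of-ratios scaling, 2352 genes were higher and 2226 lower, in place of 1710 and 3403. The median change of the 8 was 1.04, against −0.14 over all genes. The summed level of the 9 members was 114.9 ± 6.05 FPKM with LPS and 39.3 ± 1.33 FPKM in untreated cells.

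Among the nuclear enzymes, Dusp5, which is specific for ERK and holds it in the nucleus, had the largest ratio of the tested members. It stood at 25.6, 22.3 and 20.3 FPKM with LPS, against 1.74, 1.60 and 1.21 FPKM in untreated cells. The groups were far apart, with a ratio of means of 15.0 and a log2 change of 3.24 ± 0.11 (SE; adjusted p = 8.98e-10). In GENCODE M21 (GRCm38) the gene lies at chr19:53529109-53542431 on the + strand, 547 bases of its exons overlap a gene on the opposite strand, and whether the counting used strand is not given in the sources used here.

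Dusp2 (chr2:127336159-127338376, + strand), a phosphatase first found in activated lymphocytes, had 21.0, 16.6 and 15.1 FPKM with LPS, against 5.04, 4.91 and 3.82 FPKM in untreated cells. The lowest LPS library was above every untreated one, with a ratio of 3.83 and a log2 change of 1.73 ± 0.14 (adjusted p = 1.02e-06). Dusp4 (chr8:34807297-34819894, + strand), which acts on ERK and JNK, had 36.7, 35.9 and 32.9 FPKM with LPS, against 13.6, 15.0 and 15.0 FPKM in untreated cells. It was the most abundant member in both groups and rose 2.42-fold (log2 change 1.22 ± 0.08, adjusted p = 2.78e-07).

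Dusp1, the enzyme best known for restraining p38 in macrophages, was among the lower members. It stood at 3.02, 2.46 and 2.68 FPKM with LPS, against 1.62, 1.69 and 1.31 FPKM in untreated cells. The groups did not overlap, and the ratio was 1.77 (log2 change 0.55 ± 0.09, adjusted p = 0.000292). Its annotated gene model (chr17:26505590-26562128, - strand) takes in exons far upstream of the start shown above, to a length of 3311 bases, and 11 bases of it overlap Ergic1 on the opposite strand.

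Of the cytoplasmic ERK phosphatases, Dusp6 and Dusp7 moved in opposite directions. Dusp6 (chr10:99263231-99267489, + strand), whose transcript is itself induced by ERK signalling, had 18.5, 18.4 and 19.2 FPKM with LPS, against 9.58, 10.5 and 9.34 FPKM in untreated cells. It rose 1.91-fold, with a log2 change of 0.87 ± 0.07 (adjusted p = 1.09e-06). Dusp7 (chr9:106368632-106375724, + strand) had 3.55, 2.59 and 2.52 FPKM with LPS, against 4.31, 4.03 and 3.75 FPKM in untreated cells. Its fall was the smallest called change, −0.38 ± 0.10 (adjusted p = 0.00782), beside a median of −0.14 over all genes. With median-of-ratios scaling, under which that median was −0.0043, the change in Dusp7 was −0.25 (adjusted p = 0.0764). With only the LPS and untreated libraries in the fit, the adjusted p was 0.0505.

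In the class that acts on JNK and p38, all 3 members were higher with LPS in every library. Dusp16 (chr6:134715468-134792625, - strand), a JNK phosphatase, had 11.3, 13.7 and 15.2 FPKM with LPS, against 2.34, 2.85 and 3.43 FPKM in untreated cells, a ratio of 4.66 (log2 change 1.89 ± 0.12, adjusted p = 1.38e-07). Dusp10 (chr1:184013302-184075636, + strand), which acts on JNK and p38, stood at 1.03 ± 0.086 FPKM against 0.423 ± 0.0823 FPKM in untreated cells (log2 change 0.51 ± 0.09, adjusted p = 0.00078), and since only LPS libraries brought it past the filter this call is no independent support.

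Dusp8 (chr7:142079490-142095843, - strand), a JNK phosphatase best known from brain and heart, was close to silent without LPS. Its 3 LPS libraries held 110 to 124 reads each (0.788, 0.717 and 0.673 FPKM), and the 3 untreated libraries 0 to 6 reads (0.0152, 0 and 0.0341 FPKM). The ratio of means was 44.2, resting on 10 reads over the untreated group, and the highest level it reached in any library was 0.877 FPKM. With no filter on low values its log2 change was 0.76 ± 0.04 (adjusted p = 6.01e-07).

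The LPS response in cells that also had the antibody, LPS+anti-CD36 versus anti-CD36 alone, called the same 8 members in the same directions, 7 higher and 1 lower, where 47.5% of all genes were called (16.3% higher and 31.3% lower). Here too the 7 included Dusp10, which passed the filter only through libraries given LPS. Median-of-ratios scaling gave 2252 genes higher and 2211 lower, in place of 1670 and 3212. Dusp5 stood at 35.0 ± 2.52 FPKM against 2.74 ± 0.391 FPKM with the antibody alone, Dusp2 at 33.0 ± 2.01 against 6.07 ± 1.08 FPKM, and Dusp16 at 12.3 ± 0.92 against 2.18 ± 0.179 FPKM. Their log2 changes were 3.27, 2.27 and 2.06. Dusp4 (0.80) and Dusp6 (0.75) rose as well, with adjusted p of 1.01e-05 and 3.96e-06.

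The smaller calls of that comparison were less firm. Dusp1 stood at 2.30 ± 0.207 FPKM against 1.75 ± 0.128 FPKM with the antibody alone (0.27, adjusted p = 0.0281). The call was lost when anti-CD36 replicate 2 (adjusted p = 0.0921) or 3 (0.0664), or LPS+anti-CD36 replicate 1 (0.113) or 2 (0.0507), was left out. Dusp7 stood at 3.55 ± 0.1 FPKM against 4.57 ± 0.345 FPKM (−0.29, adjusted p = 0.0321). It did not pass in 7 of 22 settings: with no filter (0.0573), with median-of-ratios scaling (0.212), without anti-CD36 replicate 1 (0.0711) or 3 (0.115), and without LPS+anti-CD36 replicate 1 (0.0841), 2 (0.0853) or 3 (0.0591). Dusp10 rose by 0.37 (adjusted p = 0.00709), and since only libraries given LPS brought it past the filter this call is no independent support. Dusp8 stood at 137 to 172 reads a library against 2 to 4.

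**Figure D2:**
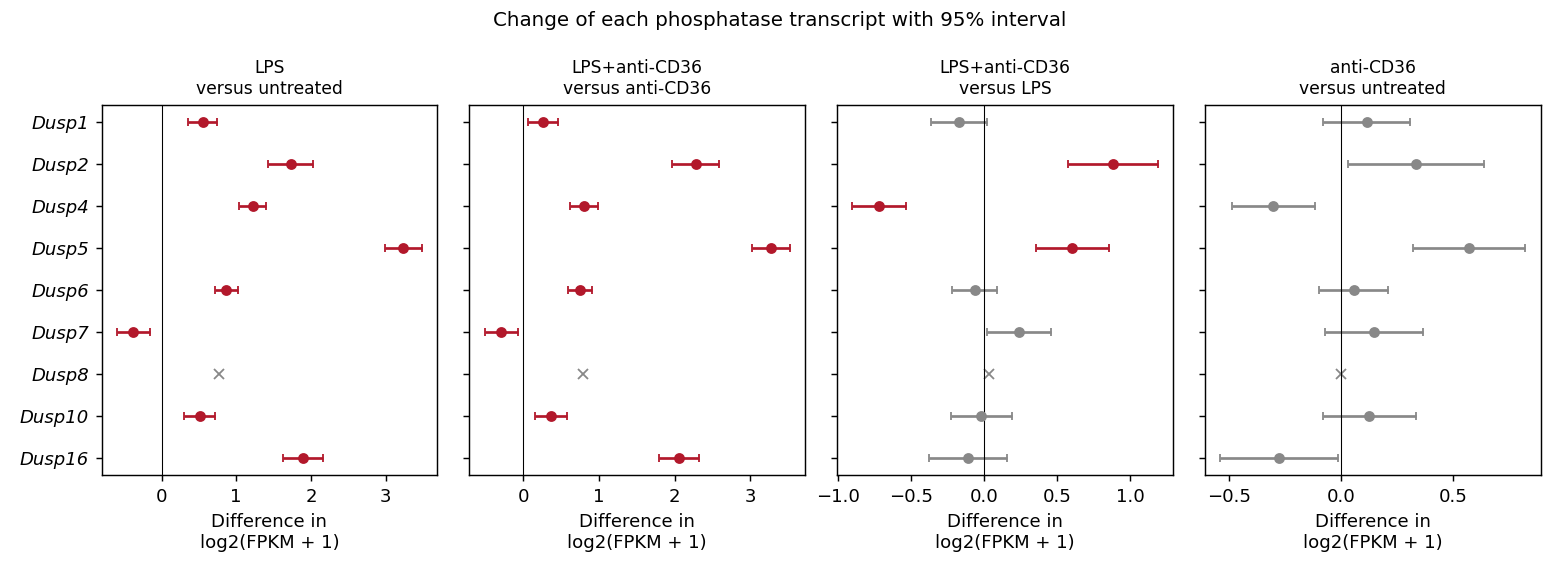
Change of each phosphatase transcript in 4 comparisons, as the difference in log2(FPKM + 1) with its 95% interval from limma. Red marks an adjusted p under 0.05, grey marks no call, crosses mark Dusp8, which was not tested, and the horizontal scales differ between panels. With LPS present, Dusp2 and Dusp5 were higher and Dusp4 was lower in the libraries with the antibody.

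LPS+anti-CD36 was compared with LPS alone to give the difference that went with the antibody in activated cells. Of the 8 members tested, Dusp2 and Dusp5 rose and Dusp4 fell, where 7.34% of all genes rose and 8.14% fell. With TPM scaling, 382 genes rose and 769 fell, in place of 754 and 836. All 3 encode nuclear enzymes, a class whose other member, Dusp1, was tested and gave no call. The median change of the 8 was −0.04, against 0.02 over all genes, and the summed level of the 9 members was 126.7 ± 5.58 FPKM against 114.9 ± 6.05 FPKM with LPS alone.

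Dusp2 had 35.0, 33.0 and 30.9 FPKM with LPS+anti-CD36, against 21.0, 16.6 and 15.1 FPKM with LPS. The groups did not overlap, and the log2 change was 0.88 ± 0.14 (ratio 1.88, adjusted p = 0.00213). Dusp5 had 37.9, 33.6 and 33.4 FPKM with LPS+anti-CD36, against 25.6, 22.3 and 20.3 FPKM with LPS. Every library with the antibody was again above every one without it, by 0.60 ± 0.11 (ratio 1.54, adjusted p = 0.0062).

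Dusp4 went the other way. It had 22.6, 20.4 and 19.9 FPKM with LPS+anti-CD36, against 36.7, 35.9 and 32.9 FPKM with LPS, so that the antibody group lay below every LPS library. The log2 change was −0.72 ± 0.08 (ratio 0.597, adjusted p = 0.000298). All 3 calls held in all 23 alternative settings, including each that left out a library.

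Across genes, the change between LPS+anti-CD36 and LPS went with GC content (Spearman 0.37) and with gene model length (−0.50), a description over 10092 genes that share libraries. The longest transcripts of Dusp2, Dusp5 and Dusp4 have GC contents of 59.3%, 56.7% and 56.0%, and their gene models have lengths of 2003, 2473 and 2740 bases. With the GC and length trend of each library removed, Dusp2 changed by 0.66, Dusp5 by 0.42 and Dusp4 by −0.89, each still called.

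The other members gave no call between LPS+anti-CD36 and LPS. Dusp6 stood at 17.9 ± 0.21 against 18.7 ± 0.403 FPKM, groups that did not overlap but differed by −0.06, with a 95% interval of −0.22 to 0.09. Dusp16 stood at 12.3 ± 0.92 against 13.4 ± 1.95 FPKM, with an interval of −0.37 to 0.15, and Dusp10 at 1.01 ± 0.176 against 1.03 ± 0.086 FPKM, with −0.22 to 0.19.

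Dusp1 and Dusp7 lay nearer the threshold. Dusp1 stood at 2.30 ± 0.207 FPKM with LPS+anti-CD36 and 2.72 ± 0.279 FPKM with LPS (−0.17, interval −0.37 to 0.02, adjusted p = 0.195), and with the GC and length trend removed it was lower by −0.29 (adjusted p = 0.00702). Dusp7 had 3.49, 3.50 and 3.67 FPKM with LPS+anti-CD36, against 3.55, 2.59 and 2.52 FPKM with LPS (0.24, interval 0.02 to 0.46, adjusted p = 0.121). Only LPS replicate 1 reached the antibody group in Dusp7, and without it the difference was 0.36 (adjusted p = 0.00867).

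The antibody alone was set against untreated cells to give the difference that went with it in cells without LPS. No member was called by limma among the 8 tested, where 0.341% of all genes were, and 4 of the 8 had an unadjusted p under 0.05, as did 1969 of the 10276 genes tested. Dusp5 had 3.07, 2.31 and 2.85 FPKM with the antibody, against 1.74, 1.60 and 1.21 FPKM in untreated cells. Its groups did not overlap, and the difference was 0.57 ± 0.11 with an adjusted p of 0.0669. It passed in 5 of 23 settings, among them without LPS replicate 1 (0.0325), with a pseudocount of 0.1 (0.0377), with replicate number as a block (0.0107) and after removal of the GC and length trend (0.00452).

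Dusp4 had 12.3, 12.0 and 10.5 FPKM with the antibody, against 13.6, 15.0 and 15.0 FPKM in untreated cells (−0.30 ± 0.08, adjusted p = 0.136). It passed with the block (0.0347), with the GC and length trend removed (0.0234) and with both (0.0162). Dusp2 stood at 6.07 ± 1.08 against 4.59 ± 0.672 FPKM (0.34, adjusted p = 0.232) and Dusp16 at 2.18 ± 0.179 against 2.87 ± 0.545 FPKM (−0.28, adjusted p = 0.244), and both passed only with the block (0.0382 and 0.0383). The change over all genes went with GC content (Spearman 0.55) and with gene model length (−0.51) here too. With the trend of both removed, the Dusp2 difference was 0.10.

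Dusp1, Dusp6, Dusp7 and Dusp10 overlapped between the antibody and untreated groups. Their differences were 0.11, 0.06, 0.15 and 0.13, and the upper ends of their 95% intervals were 0.31, 0.21, 0.37 and 0.33. Dusp8 had 8 reads over the 3 antibody libraries and 10 over the 3 untreated ones.

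Whether the LPS change differed with and without the antibody was tested by the interaction. No member was called by limma, where 1.28% of all genes were (0.496% higher and 0.788% lower), and 3 of the 8 tested had an unadjusted p under 0.05, as did 884 of all 10276 genes. With a pseudocount of 0.1, 19 genes were higher and 69 lower, in place of 51 and 81. Dusp4 had the smallest of these: its LPS change was 0.80 with the antibody and 1.22 without, a difference of −0.41 (95% interval −0.68 to −0.15, adjusted p = 0.195). For Dusp2 the LPS changes were 2.27 and 1.73, a difference of 0.55 (0.12 to 0.98, adjusted p = 0.364), which passed with the block (0.0479) and with the GC and length trend removed (0.000701). For Dusp5 they were 3.27 and 3.24, and the difference of 0.03 (−0.32 to 0.39) changed sign with the pseudocount.

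The order of the members by level differed between groups. In untreated cells Dusp4 (14.5 ± 0.785 FPKM) led Dusp6 (9.80 ± 0.594), followed by Dusp2, Dusp7, Dusp16, Dusp1, Dusp5, Dusp10 and Dusp8, with overlapping libraries only between Dusp2 and Dusp7 and between Dusp1 and Dusp5. With LPS alone the order was Dusp4, Dusp5, Dusp6, Dusp2, Dusp16, Dusp7, Dusp1, Dusp10 and Dusp8, where Dusp2 overlapped Dusp5, Dusp6 and Dusp16, and Dusp7 overlapped Dusp1. With LPS+anti-CD36, Dusp5 (35.0 ± 2.52) and Dusp2 (33.0 ± 2.01) came first and overlapped each other, both above Dusp4 (21.0 ± 1.44) in every library. With the antibody alone Dusp4 (11.6 ± 0.957) and Dusp6 (10.2 ± 0.686) overlapped at the top.

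As a share of the summed level of the 9 members, Dusp4 made up 16.6 ± 0.399% with LPS+anti-CD36, 30.6 ± 0.815% with LPS, 29.2 ± 1.9% with the antibody and 37.0 ± 1.99% in untreated cells. Dusp5 made up 27.6 ± 0.786%, 19.7 ± 1.25%, 6.90 ± 0.869% and 3.85 ± 0.674% in the same groups. The cytoplasmic ERK class held 16.9 ± 0.637% with LPS+anti-CD36, 18.8 ± 0.873% with LPS, 37.3 ± 2.75% with the antibody and 35.1 ± 0.927% in untreated cells. The nuclear class held 72.0 ± 1.58%, 67.9 ± 3.12%, 55.7 ± 3.25% and 56.4 ± 0.664%. The shares of a group sum to the whole, so a rise of any member lowers the shares of the others.

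**Figure D3:**
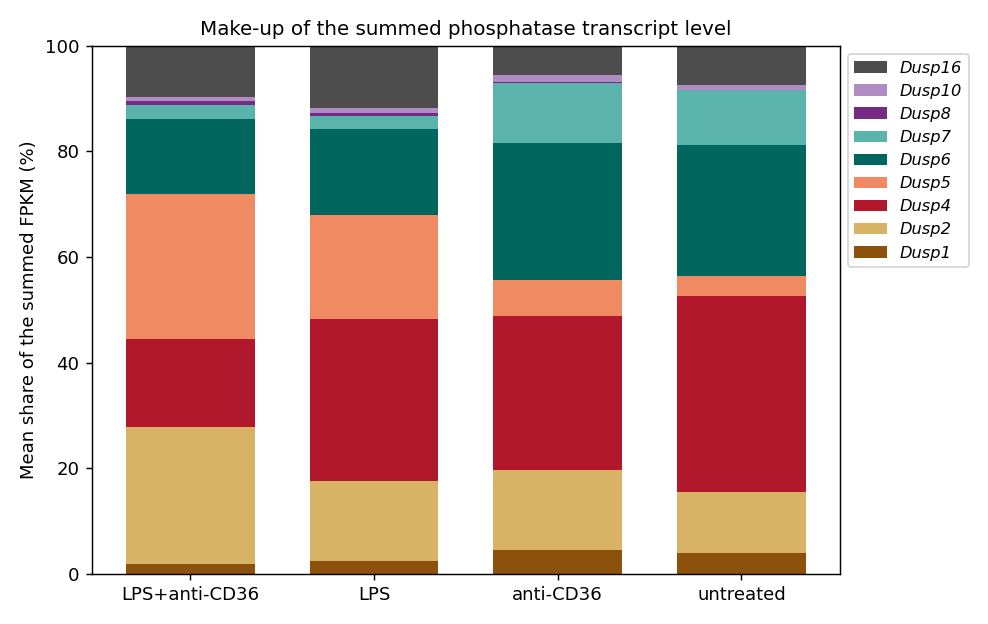
Mean share (%) of each phosphatase in the summed FPKM of the 9 members, per group (n = 3 libraries each); the shares of a bar add up to the whole. Dusp4 takes the largest share in untreated cells (37.0%) and with LPS (30.6%), and Dusp5 (27.6%) and Dusp2 (26.0%) with LPS+anti-CD36.

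Over the 12 libraries, the tested genes whose log2(FPKM + 1) was most like that of a member were named by Pearson's r, as a description over libraries that share groups. For Dusp5 they were Oasl1, an interferon-induced gene (r = 0.9996), and Traf1, a TNF receptor adaptor (0.999). For Dusp2 they were Lrrc25 (0.997) and Nfkbid, a nuclear inhibitor of NF-kB (0.997). For Dusp4 they were Aff1, a transcription elongation factor (0.984), and Zfyve1 (0.982), and Aff1 stood at 7.50 ± 0.152 FPKM with LPS+anti-CD36 and 13.1 ± 0.954 FPKM with LPS. For Dusp16 they were Lcp2, a signalling adaptor (0.997), and Tmx4 (0.997), and for Dusp6 Epsti1 was among them (0.994). For Dusp7 they were Tsfm (0.985) and Men1 (0.984). Values were lower than these for Dusp1 (Ier5, 0.975, and Vps37c, 0.974) and Dusp10 (Tmem171, 0.943, and Stard5, 0.941).

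The members' 3′ UTRs differed in ATTTA pentamers, the core of the AU-rich elements that shorten the life of many inducible mRNAs. Dusp2 had 4 in 584 bases and Dusp1 had 4 in 693 bases, or 6.85 and 5.77 per kilobase, against a median of 1.29 over 9355 tested genes. At least 96.9% of those genes had a density no higher than theirs. Dusp5 and Dusp6 had 1 each, Dusp4 had 2, and Dusp7 had 0 in 1781 bases. The longer TATTTAT element was in Dusp1 (3), Dusp8 (2) and Dusp2 (1), and in 30.8% of the 9355 genes. The 3 transcripts called between LPS+anti-CD36 and LPS thus ran from 0.899 (Dusp5) and 1.80 (Dusp4) to 6.85 (Dusp2) pentamers per kilobase.

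Other genes of the MAP kinase pathway were counted in 9 lists with 83 tested genes of 102 listed. Between LPS and untreated cells 22 of the 83 rose and 25 fell, beside 16.6% and 33.1% of all genes, so that the share that fell was close to that of all genes. The ERK feedback list (Sprouty and Spred proteins, which block the pathway above ERK) had 2 of 4 tested genes higher, with Spred3 at 4.15 ± 0.467 FPKM against 0.864 ± 0.128 FPKM. The p38 kinase Mapk11 stood at 6.90 ± 0.198 against 4.18 ± 0.206 FPKM (adjusted p = 2.38e-05) and Mapk14 at 20.6 ± 1.08 against 27.4 ± 2.97 FPKM (adjusted p = 0.00597). Of 12 other dual-specificity phosphatases tested, 0 rose and 3 fell, a smaller share than the 33.1% of all genes. They were Dusp14, Dusp22 and Dusp28, with log2 changes of −0.81, −0.47 and −0.66.

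Between LPS+anti-CD36 and LPS, 7 of the 83 rose and 16 fell, beside 7.34% and 8.14% of all genes, so that the share that rose was close to that of all genes. No MAP kinase was called among 8 tested by limma, with 1 at an unadjusted p under 0.05, while of the 7 kinases just above them 1 rose and 1 fell. The call of the kinase that rose, Map2k3 (0.46, adjusted p = 0.0217), was lost in 6 of 23 settings. Map2k1, which activates ERK, stood at 44.8 ± 1.83 FPKM with LPS+anti-CD36 and 63.4 ± 1.41 FPKM with LPS (−0.49, adjusted p = 0.00568). Of 14 tested genes listed as MAP kinase kinase kinases, 1 rose and 3 fell. Those that fell included Map3k1, an activator of the JNK branch, at 3.99 ± 0.243 against 9.22 ± 1.04 FPKM (−1.03, adjusted p = 0.000765) and Map3k3 (−0.38, adjusted p = 0.00664). The kinase that rose was Map3k14 (0.35, adjusted p = 0.0456), and its call was lost in 14 of 22 settings.

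In the ERK feedback list 0 of 4 tested genes rose and 3 fell between LPS+anti-CD36 and LPS, beside 7.34% and 8.14% of all genes. Spred2 stood at 9.78 ± 0.439 FPKM with LPS+anti-CD36 and 14.3 ± 0.558 FPKM with LPS (−0.50, adjusted p = 0.00148), and that call held in all 23 settings. Spred1 (−0.69, adjusted p = 0.0185) did not pass without LPS replicate 2 (0.0784) or 3 (0.0748) or without LPS+anti-CD36 replicate 1 (0.0782) or 2 (0.0657), and Spred3 (−0.32, adjusted p = 0.049) was lost in 16 of 22 settings. Of 17 ERK-dependent transcripts tested, 2 rose and 6 fell, beside 7.34% and 8.14% of all genes. Egr3, a transcription factor, stood at 1.66 ± 0.232 against 3.18 ± 0.368 FPKM (−0.65, adjusted p = 0.00157), and Egr1 and Myc fell by 1.27 and 0.51 on the log2 scale. Egr3 was already lower with LPS than in untreated cells (6.29 ± 0.661 FPKM), whereas Egr1 and Myc rose with LPS. Phlda1, of the same list, stood at 68.2 ± 7.80 FPKM with LPS+anti-CD36 and 43.3 ± 6.50 FPKM with LPS. Dusp6 differed by −0.06 and was not called.

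Of 8 tested genes for proteins that bind AU-rich elements, 1 rose and 1 fell between LPS+anti-CD36 and LPS, beside 7.34% and 8.14% of all genes. Zfp36l1, which promotes decay of such mRNAs, stood at 20.4 ± 1.02 FPKM with LPS+anti-CD36 and 38.3 ± 2.47 FPKM with LPS (−0.88, adjusted p = 2.64e-05). Its LPS change also differed with the antibody (interaction −0.75, adjusted p = 0.00394). Of the 83 pathway genes tested, 0 were higher and 3 lower in the interaction by limma, beside 0.496% and 0.788% of all genes. The others were Egr1 (−1.49, adjusted p = 0.000143), called in all 22 settings, and Egr3 (−0.71, adjusted p = 0.0304), lost in 11 of 22. The gene of the AU-rich list that rose between LPS+anti-CD36 and LPS was Hnrnpd (0.27, adjusted p = 0.0276), and its call was lost in 7 of 23 settings. Zfp36, which binds the same elements, was not called between LPS+anti-CD36 and LPS. It rose with LPS to 83.7 ± 13.3 FPKM, against 9.85 ± 0.699 FPKM in untreated cells. Between LPS and untreated cells 2 of the 8 rose and 3 fell, beside 16.6% and 33.1% of all genes. Zfp36l2 fell to 10.4 ± 0.528 from 35.1 ± 2.20 FPKM, and Khsrp to 30.7 ± 4.92 from 48.8 ± 2.98 FPKM. With the antibody alone, 0 of the 83 pathway genes were called by limma, beside 0.341% of all genes. An unadjusted p under 0.05 was found for 23 of the 83 and for 1969 of all 10276 genes.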

How the data were processed

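The deposited table holds FPKM values computed by the authors, 1 column per library. HISAT2 2.0.5 and the builds mm39 and hg38, with no roles, are listed per the submitters' processing notes; the counting tool, annotation and strand setting are not given in the sources used here. Of 31801 entries, 82 repeats of a symbol were left out (the entry of highest mean was kept), and Il6 was left out because 6 of its 12 values equalled those of Gm10874. Depth was recovered from FPKM steps with exon-union lengths of GENCODE M21 (Python 3.11.15, numpy 2.4.6, pandas 2.3.3), with 94.4% to 94.6% of values whole within 0.005 reads. At low counts, even numbers were 1.70 to 2.18 times as frequent as odd ones, so single mates of a pair may have been counted, and no counting interval is given.

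Genes with at least 1 FPKM in 3 of the 12 libraries were fitted as log2(FPKM + 1) in 1 limma model of the 4 groups (limma 3.58.1, R 4.3.3, intensity trend, Benjamini-Hochberg adjustment). The fit was also run on simulated data that held no GC or length trend and no replicate effect, so that run cannot speak to these. Alternatives changed the pseudocount, filter, trend, scaling, libraries in the fit, replicate block and a GC and length correction (98.2% of genes had values). Coordinates are GRCm38 (GENCODE M21, RefSeq GRCm38.p6). Members and lists were chosen with earlier results of these data known. Genes named from a list are among its 3 called genes of smallest p per comparison, and for each tested member the 2 genes of highest r, of which 1 is not reported here.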

Additional observations from a re-analysis of the deposited data

How the results depend on the processing

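The calls of Dusp2, Dusp4, Dusp5, Dusp6 and Dusp16 in both LPS comparisons, and of Dusp2, Dusp4 and Dusp5 for LPS+anti-CD36 versus LPS, kept their direction and stayed past the threshold in all settings run. With a filter of 5 FPKM, 5 members were called for LPS versus untreated and for LPS+anti-CD36 versus anti-CD36 in place of 8, since Dusp1, Dusp7 and Dusp10 were then not tested. Leaving out a library gave 8 members for LPS versus untreated, 3 to 4 for LPS+anti-CD36 versus LPS, 6 to 8 for LPS+anti-CD36 versus anti-CD36, 0 to 1 for anti-CD36 versus untreated and 0 for the interaction of LPS and anti-CD36.

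For anti-CD36 versus untreated, members called were 1 with a pseudocount of 0.1, 4 with the replicate block, and 2 with the GC and length trend removed, with or without the block. Over all genes this comparison gave 35 calls, against 12 with TPM scaling (58.3% of them higher, in place of 42.9%), 1164 with the block, 0 in a limma fit of the compared groups only (1716 genes with an unadjusted p under 0.05), 449 with the trend removed and 1000 with both. Leaving out a library gave 1 to 131: 131 without LPS replicate 1, 7 without LPS replicate 2, 5, 18 and 1 without anti-CD36 replicates 1, 2 and 3, 7, 7 and 8 without LPS+anti-CD36 replicates 1, 2 and 3, and 1 without either untreated replicate 2 or 3.

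LPS+anti-CD36 versus LPS gave 1590 calls, against 3645 with the block, 939 with the compared groups only, 2467 with the trend removed and 3597 with both. With TPM scaling 33.2% of its calls were higher, in place of 47.4%. Leaving out a library gave 582 to 3977: 3977, 582 and 743 without LPS replicates 1, 2 and 3, and 639, 590 and 848 without LPS+anti-CD36 replicates 1, 2 and 3. The interaction of LPS and anti-CD36 gave 132 (38.6% higher), against 88 with a pseudocount of 0.1 (21.6% higher), 85 with the filter of 5 FPKM, 212 with the block, 395 with the trend removed and 531 with both, and 1 member was called with the block, the trend removed, or both. It gave 77 to 161 with a library left out, and fell below 85 in 6 of those settings: anti-CD36 replicate 3, LPS replicate 2, each LPS+anti-CD36 replicate and untreated replicate 2. LPS versus untreated gave 4302 to 5459 and LPS+anti-CD36 versus anti-CD36 4024 to 5447. The cause of these moves was not tested, except that the stricter filter tests fewer genes and some fits hold fewer libraries.

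Differences that took the other sign were all uncalled. For anti-CD36 versus untreated they were Dusp6 with TPM scaling (−0.025) and Dusp7 with the trend removed, with or without the block (−0.015). For LPS+anti-CD36 versus LPS they were Dusp16 with the trend removed, with or without the block (0.029), and Dusp10, which ran from −0.060 to 0.057 with a library left out. For the interaction of LPS and anti-CD36 it was Dusp5, with pseudocounts of 0.1 (−0.20) and 0.5 (−0.073), with TPM scaling (−0.024), and over a range of −0.055 to 0.12 with a library left out.

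The labels do not say that replicate numbers pair the libraries. Deviations from the group means correlated by 0.45 to 0.78 among libraries numbered 1, −0.32 to 0.43 among those numbered 2 and −0.07 to 0.81 among those numbered 3, and 7 of 12 libraries correlated best with a library of their own number. The block is therefore given as an alternative.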
